A study of Mus musculus with 12 samples.

Results

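The genes described here encode voltage-gated and related ion channels of the mouse: the pore-forming and accessory subunits whose symbols begin with Kcn plus a letter and a digit, Scn, Cacna, Cacnb, Cacng or Hcn. Of 54838 genes in the count tables, 127 had such a symbol, and 121 of these reached at least 10 counts in at least 3 of the 12 libraries and are described. The other 6 (Cacng1, Kcna10, Kcne1, Kcnj1, Kcnj4 and Kcnk15) stayed below that level, and 2 of the 121, Kcnq1ot1 and Kcnd3os, are antisense RNAs that the symbols also match. RNA was sequenced from oligodendroglial-enriched cell suspensions of P60 spinal cord, in 4 groups of 3 libraries. Control mice were Olig1+/+;Tet1fl/fl and Tet1 mutants were Olig1cre/+;Tet1fl/fl, so that both genotypes carried the floxed Tet1 allele, and Tet1 encodes an enzyme that converts methylated to hydroxymethylated cytosine in DNA. Tissue of each genotype was taken either at 4 days after a lysolecithin injection that demyelinates the ventrolateral white matter (4dpl) or from the uninjected side. The comparisons asked how the lesion, the loss of Tet1 and their combination changed transcript levels.

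Several properties of the samples limit what a level stands for. Cre expressed from the Olig1 locus deletes in Olig1-expressing cells from development onward, whereas the suspensions were enriched on a Percoll gradient and not sorted, so they also held other cells. Tet1 itself was counted over the whole gene at 9.94 to 18.3 CPM (counts scaled to the library's size) in the unlesioned libraries of both genotypes. In the 4dpl libraries it was at 10.9 to 21.5 CPM, and these values do not separate the genotypes. The study's methods describe a floxed allele that loses only part of Tet1, in OLIG1+ cells. A count over the whole gene in mixed suspensions therefore cannot decide whether Tet1 was deleted, and the mutant libraries are mutant by label. By immunostaining, the study reports a lower percentage of TET1-expressing OLIG2+ cells in mutants. Library totals ranged from 34805086 to 67251544 counts. Fewer cells of a type and less RNA per cell cannot be told apart in such samples.

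Ion channels let ions cross the cell membrane and so set its resting potential and its excitability. Neurons carry sodium and fast potassium channels at the node of Ranvier and in the flanking axonal domains that myelin organizes. Glial cells use mostly potassium channels: inward rectifiers of astrocytes and oligodendrocytes take up the potassium that active axons release, and tandem-pore and calcium-activated potassium channels shape the resting potential and activity of microglia.

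The most abundant channel transcripts of these preparations belong to channels known from microglia, macroglia and axons. Levels between genes were compared as CPM divided by the exon length in kilobases (RPKM). Of the 121 genes, 20 had a mean of at least 1 RPKM over the 12 libraries, 9 had at least 5 RPKM and 86 had less than 0.5 RPKM, and the median was 0.277 RPKM. The 9 highest held 73.3% of the summed mean RPKM of all 121. Kcnk13, the tandem-pore potassium channel of microglia, had the highest mean at 29.4 RPKM and ranged from 10.7 to 53.5 RPKM. It was followed by Hcn2, a hyperpolarization-activated cation channel also found in oligodendrocytes, with a mean of 20.5 RPKM and the widest range of the 9, 3.15 to 116 RPKM. The next were Kcnk6, a tandem-pore channel of macrophages, at 17.4 RPKM, the axonal and glial delayed rectifier Kcna1 at 17.1 RPKM, and the lymphocyte and microglial delayed rectifier Kcna3 at 15.4 RPKM. Their ranges over the 12 libraries overlapped, so that the order of these neighbours is not larger than the spread between libraries. Kcnj10, the inward rectifier of astrocytes and oligodendrocytes, had a mean of 12.4 RPKM, the delayed rectifier Kcna6 of 9.30 RPKM, the calcium-activated Kcnn4 of 6.50 RPKM and the inward rectifier Kcnj2 of 5.06 RPKM. Of the exon bases of Kcna6, 39.6% also lie in exons of an antisense gene, and since the strand setting of the counting was not given, reads of the 2 genes cannot be told apart there.

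**Figure D1:**
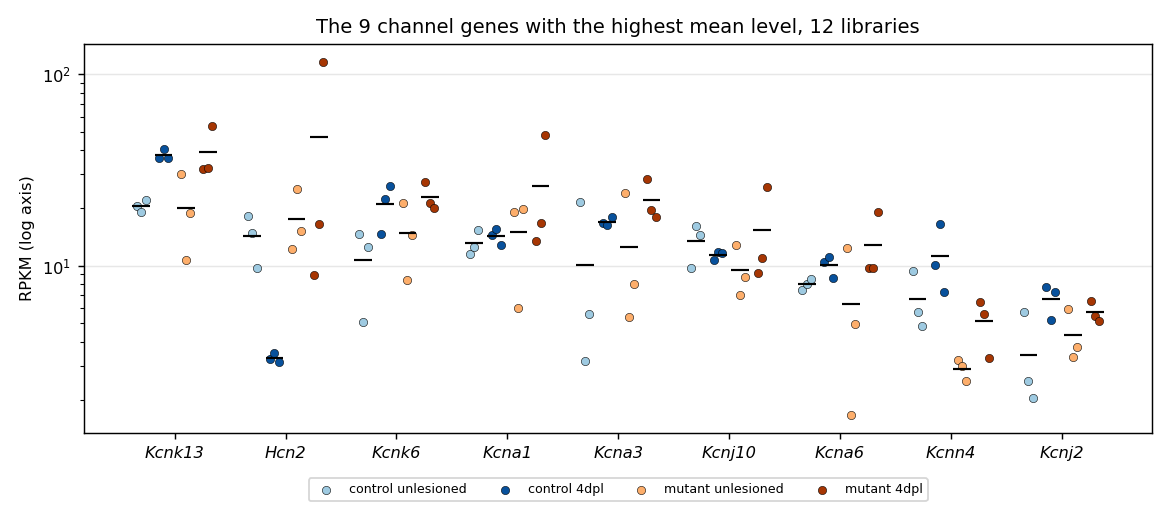
Level in RPKM (log axis) of the 9 channel genes with the highest mean, with 1 point for each of the 12 libraries, colours for the 4 groups and black lines for the mean of 3 libraries. Kcnk13 spans 10.7 to 53.5 RPKM, while Hcn2 spreads from 3.15 to 116 RPKM, lowest in the 3 control libraries at 4dpl and highest in 1 mutant library at 4dpl.

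With the lesion, few channel transcripts rose and more fell, and those that fell were mostly of low abundance. A gene was called at an unadjusted p below 0.01 together with an adjusted p below 0.05. In control mice 6 of the 121 were lower at 4dpl (among them Kcnk12, Kcng2 and Kcnh7), or 4.96%, against 5.01% of all 31109 genes tested, a share near the background. None was called higher, against 5.12% of all genes, with 7 higher at an unadjusted p below 0.05. DESeq2 called 1 higher in controls, against 8.03% of the 31109 genes, and voom called 6, against 15.5%. DESeq2 called 23 and voom 27 lower in controls, more than the 6 of edgeR. Voom called 4827 of all genes lower there, edgeR 1558, and DESeq2 4740 over a wider set of genes. In Tet1 mutants none was called in either direction by edgeR with all 12 libraries, TMM and the filter on low counts, against 0.0225% of all genes higher and 0.113% lower. A fit of the 2 mutant groups alone called Scn3a and Scn4a lower, and with 1 library left out up to 9 were called lower and up to 2 higher. At an unadjusted p below 0.05 the mutants had 4 higher and 31 lower. DESeq2 called 1 higher and 17 lower in mutants, against 3.61% and 11.8% of all genes, and voom called 2 higher and 14 lower, against 11.2% and 10.6%. A call in one genotype without one in the other is not shown to be a difference between them, and the interaction of genotype and lesion was called for no channel gene.

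Taking the mean lesion effect of both genotypes, 3 channel genes rose (Kcnk13, Kcnn4 and Cacng5) and 27 fell. These are 2.48% and 22.3% of the 121, beside 14.2% of all genes higher and 18.6% lower. The median log2 change of the 121 was -0.73, with 29 above 0 and 92 below, and that of all genes tested was -0.28. These counts and medians are a description only, since a gene was described if it had at least 10 counts in 3 libraries, and 17 of the 121 met that count in fewer than 3 of the 6 libraries at 4dpl, while none did so in unlesioned libraries. All 17 had a log2 change below 0, and 5 of them are among the 27 (Kcng2, Cacng3, Kcnj13, Kcnv1 and Kcnk18). With RLE size factors in place of TMM the latter moved to -0.38 (in mutants alone from -0.18 to -0.32), the median of the 121 to -0.85 and the number below 0 to 96, and the 3 genes that rose were still above 0. With DESeq2 the medians were -0.92 over all genes and -0.85 over the 121. That all-gene median covered a wider set than the 31109 genes, with 3994 called lower in mutants against 3679 of the 31109. The DESeq2 medians therefore cannot place the channels below or above all genes tested. The same limit holds for DESeq2 within controls (-0.84 and -0.73) and within mutants (-0.84 and -0.75). With TMM the channels lay below all genes in controls (-0.68 against -0.36) and in mutants (-0.62 against -0.18). With RLE size factors they did so too, at -0.74 against -0.42 in controls and -0.76 against -0.32 in mutants. All 27 that fell had a negative log2 change in both genotypes, between -2.66 and -0.90 in the mean of both, and 26 of the 27 had a mean level below 0.5 RPKM. In 2 genes, Kcnk13 and Cacng5, all 6 libraries at 4dpl lay above all 6 unlesioned ones, or 1.65% against 7.44% of all genes. In 6 genes, Cacna1g, Kcng2, Cacng3, Kcnq5, Cacna1s and Cacna1i, all 6 unlesioned libraries lay above, or 4.96% against 7.42% of all genes.

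The calls of the control comparison depended on single libraries. The 6 genes called lower became 0 without control unlesioned replicate 2 or 3 and without control 4dpl replicate 1 or 2, with 14 to 24 lower at an unadjusted p below 0.05. The control calls of Scn10a and Cacng3 were lost under 13 and 14 of 18 alternatives. The 6 became 1 without mutant unlesioned replicate 3, and 22 without control unlesioned replicate 1. In the mean of both genotypes, 19 to 32 genes were called lower with any 1 library left out.

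Among the channels called higher at 4dpl in the mean of both genotypes was Kcnk13. Its levels in control mice were 64.0, 59.4 and 68.4 CPM unlesioned and 113, 127 and 114 CPM at 4dpl. In mutants they were 94.1, 33.3 and 58.5 CPM unlesioned and 99.5, 100.1 and 166 CPM at 4dpl. The 6 lesioned libraries did not overlap the 6 unlesioned ones, and mutant 4dpl replicate 3 was the highest. The log2 change in the mean of both genotypes was 0.93 ± 0.23 (SE, adjusted p = 0.00848), and the changes within control (0.88, adjusted p = 0.0799) and within mutant mice (0.98, adjusted p = 0.0751) were of similar size without being called. The start of the Kcnk13 gene is shown as that of the most abundant channel and one called in the mean of both genotypes under all 18 alternatives, written 5′ to 3′ from RefSeq on GRCm38.p6 (chr12:99964249-99964548, plus strand, the 250 bases before the start and 50 after it), with each CG in capitals.
Kcnk13: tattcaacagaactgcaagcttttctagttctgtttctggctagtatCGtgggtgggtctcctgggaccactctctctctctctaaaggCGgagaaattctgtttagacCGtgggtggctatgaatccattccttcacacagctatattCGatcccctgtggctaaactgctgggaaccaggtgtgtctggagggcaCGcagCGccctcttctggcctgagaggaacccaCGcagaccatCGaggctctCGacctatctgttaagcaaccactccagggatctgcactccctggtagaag
It holds 9 CG, and 45.8% of the 32851 promoter windows of this length hold as many or more.

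Kcnn4 (chr7:24370263-24386690), a calcium-activated potassium channel of microglia and other immune cells, stood at 48.2, 29.4 and 24.7 CPM in unlesioned control libraries and at 51.6, 84.4 and 37.1 CPM in control libraries at 4dpl. In mutants it was at 16.5, 15.3 and 12.8 CPM unlesioned and at 33.2, 28.8 and 17.0 CPM at 4dpl. Within each genotype the lesioned libraries were higher on average, but the groups overlapped in controls. The log2 change in the mean of both genotypes was 0.79 ± 0.24 (SE, adjusted p = 0.0199), and the call was lost under 6 of 18 alternatives, 5 of them the removal of 1 library.

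Cacng5 (chr11:107874605-107915055), a transmembrane regulator of AMPA-type glutamate receptors found in oligodendrocyte progenitors, had the largest rise of the 121. It was at 2.80, 0.489 and 1.64 CPM in unlesioned and 8.20, 3.49 and 5.32 CPM in lesioned control libraries. In mutants it was at 1.14, 0.656 and 2.02 CPM unlesioned and 4.05, 3.17 and 6.15 CPM at 4dpl. The 6 lesioned libraries all lay above the 6 unlesioned ones, with a log2 change of 1.80 ± 0.41 (SE, adjusted p = 0.00660) in the mean of both genotypes. Cacng5 and Kcnk13 were called in all 19 fits, including those without any 1 library.

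The list of 5 microglial and macrophage channels had a positive log2 change for each gene in both genotypes, with a median of 0.79 in the mean of both against -0.28 for all genes. Besides the 2 that were called, Kcnk6 had 0.80 ± 0.27 (SE, adjusted p = 0.0320), Kcnj2 0.69 ± 0.25 (SE, adjusted p = 0.0384), and Kcna3 0.78 ± 0.42 (SE, adjusted p = 0.144). Kcnk6 and Kcnj2 had an adjusted p below 0.05 but an unadjusted p above 0.01, so that neither was called. The change of all 5 was positive in each of the 19 fits. Markers moved with this list: the summed level of 8 microglial markers was 2356 to 9153 CPM in unlesioned and 8015 to 13688 CPM in lesioned libraries, 6 of the 8 were called higher in the mean of both genotypes, and none was at 0. Of 7 macrophage markers 4 were called higher, with sums of 6789 to 18611 CPM unlesioned and 11083 to 25825 CPM at 4dpl. Their part in the channel values was not tested.

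**Figure D2:**
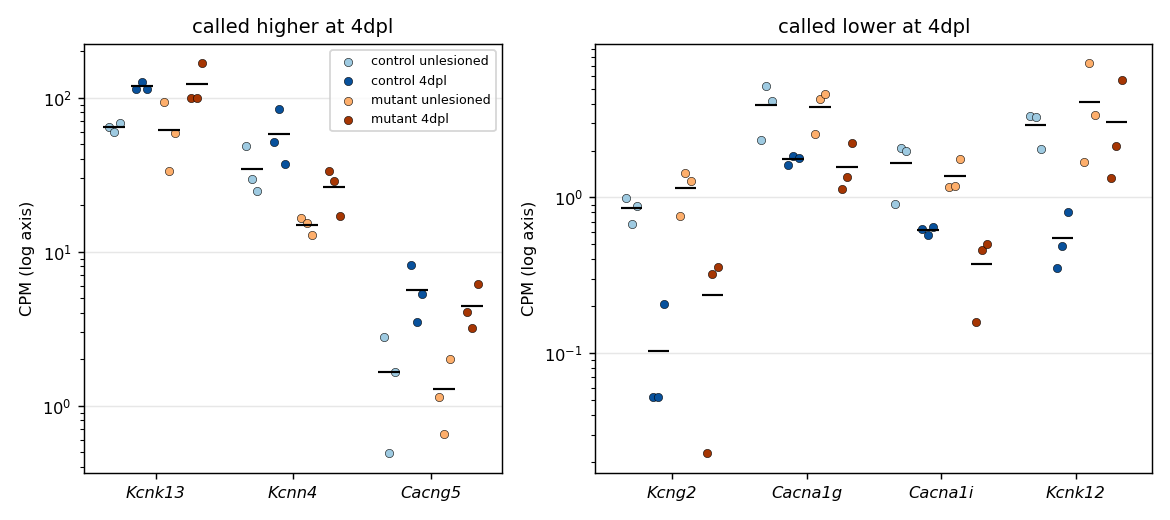
CPM (log axis) of 3 channel genes called higher and 4 called lower at 4dpl in the mean of both genotypes, with 1 point per library and black lines for the mean of 3. Kcnk13 and Cacng5 do not overlap between lesioned and unlesioned libraries, and the 4 genes called lower have at most 7.24 CPM in any library.

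Among the genes that fell, Kcng2, a silent subunit that modifies other voltage-gated potassium channels, had the smallest p. It reached 10 counts in all 6 unlesioned libraries and in 2 of the 6 at 4dpl, so that it was described through the unlesioned group. It was at 0.995, 0.680 and 0.879 CPM in unlesioned and 0.0524, 0.0520 and 0.207 CPM in lesioned control libraries, and at 0.755, 1.43 and 1.27 CPM and 0.0227, 0.322 and 0.360 CPM in those of mutants. No lesioned library reached the lowest unlesioned one, and the log2 change in the mean of both genotypes was -2.66 ± 0.55 (SE, adjusted p = 0.00492). Of its exon bases 9.10% lie in an antisense gene. Cacna1i, a low-voltage-activated (T-type) calcium channel, was at 0.902, 2.08 and 1.99 CPM in unlesioned and 0.629, 0.572 and 0.645 CPM in lesioned control libraries. In mutants it was at 1.16, 1.18 and 1.77 CPM and 0.159, 0.456 and 0.503 CPM, again without overlap, with a log2 change of -1.65 ± 0.35 (SE, adjusted p = 0.00551). Its close relative Cacna1g behaved alike, with lowest, median and highest values of 2.35, 4.23 and 5.18 CPM unlesioned and 1.14, 1.71 and 2.23 CPM at 4dpl, and a log2 change of -1.21 ± 0.28 (SE, adjusted p = 0.00698).

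Kcnh7, a voltage-gated channel of the ether-à-go-go-related group, was called in controls, with 7.27, 6.06 and 8.01 CPM unlesioned, 2.20, 2.65 and 3.92 CPM at 4dpl and a log2 change of -1.28 ± 0.37 (SE, adjusted p = 0.0447).

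Further genes that fell in the mean of both genotypes had low levels. The tandem-pore channel Kcnk9 changed by -1.52 ± 0.36 (log2 ± SE), from 0.995 to 4.83 CPM to 0.682 to 1.44 CPM. The G-protein-gated inward rectifier Kcnj6 changed by -1.73 ± 0.42, from 0.826 to 4.26 CPM to 0.268 to 1.17 CPM. The AMPA receptor regulator Cacng3 changed by -1.74 ± 0.43, from 0.319 to 0.957 CPM to 0.0921 to 0.242 CPM. In Kcnk9 and Kcnj6 the ranges of 6 libraries overlapped, while in Cacng3 they were apart. Cacng3 too reached 10 counts in 6 unlesioned libraries and in only 2 of 6 at 4dpl.

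Counts by family were read against the 18.6% of all genes called lower. All 10 sodium channel alpha subunits had a negative log2 change, with a median of -1.41, and 5 of them fell (Scn3a, Scn4a, Scn7a, Scn9a and Scn10a). Of the 10 calcium channel alpha1 subunits 5 fell (Cacna1c, Cacna1e, Cacna1g, Cacna1i and Cacna1s), with a median log2 change of -0.94. Of 39 protein-coding voltage-gated potassium channel alpha subunits 6 fell, or 15.4%, with a median of -0.85, and of 13 inward rectifiers 2 fell, also 15.4%, which are shares near the background. Of 13 tandem-pore channels 4 fell and 1 rose, with a median of -0.77. Hcn4, a hyperpolarization-activated channel of pacemaker cells, fell as well. These families are small and were not tested as groups, and the genes described through the unlesioned libraries are among them. The 4 calcium channel beta subunits had a median of 0.07.

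Transcripts that spinal cord is not known to make fell too. The reference was 1459 protein-coding olfactory and vomeronasal receptor genes, whose summed level was 326 to 1166 CPM in the 6 unlesioned and 92.0 to 244 CPM in the 6 lesioned libraries. Their 90th percentile was 0.156 to 0.493 RPKM in unlesioned and 0.0491 to 0.124 RPKM in lesioned libraries. Of 987 of these receptors that were tested, 577 were called lower in the mean of both genotypes, with a median log2 change of -2.41. The unlesioned libraries therefore carried more of this low-level signal, by values that did not overlap between lesioned and unlesioned libraries, and its part in the falls was not tested.

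The highest of these percentiles, 0.493 RPKM, lies close to 0.5 RPKM, and the channel genes were divided there by their mean over all 12 libraries, a division chosen after the values were seen. Of the 35 genes at or above 0.5 RPKM, 3 rose (Kcnk13, Kcnn4 and Cacng5) and 1 fell (Kcnk12) in the mean of both genotypes, 22 of 35 had a log2 change above 0 and the median was 0.23. The call of Kcnk12 in the mean of both genotypes (log2 change -1.42) was lost with any of 7 single libraries left out, namely control unlesioned replicate 1 or 2, control 4dpl replicate 1 or 2, mutant unlesioned replicate 2 and mutant 4dpl replicate 1 or 2, with changes of -1.35 to -1.05. Of the 86 below 0.5 RPKM, 26 fell, 79 of 86 had a log2 change below 0 and the median was -0.99. The T-type calcium channels and the sensory neuron channels belong to these 86, as does Cacna1e, which at 0.353 RPKM was the highest of the 26.

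**Figure D3:**
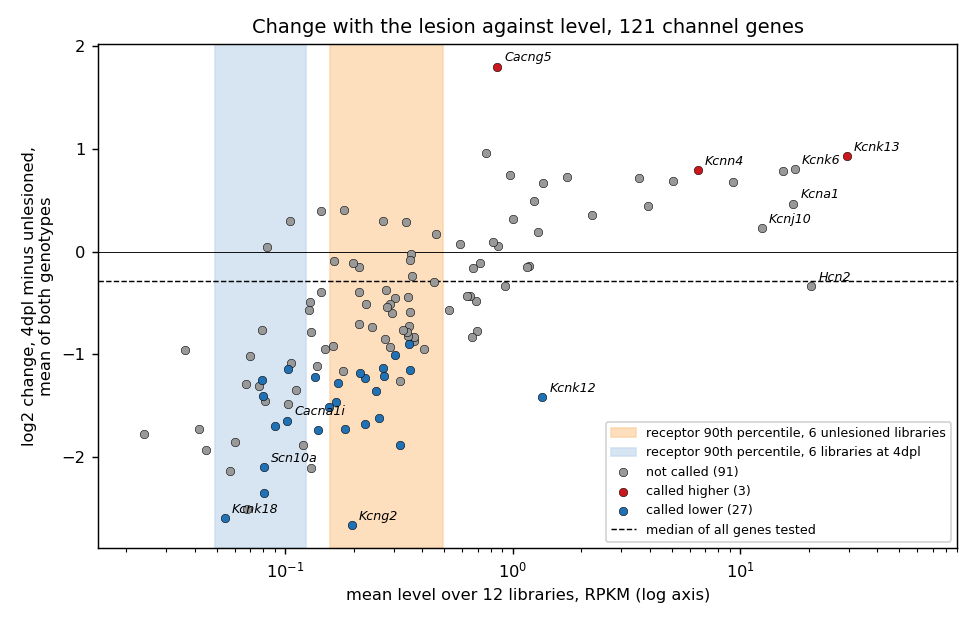
Log2 change at 4dpl in the mean of both genotypes against the mean RPKM of 12 libraries (log axis) for 121 channel genes, coloured by call. Bands give the range of the receptor 90th percentile in the 6 unlesioned and in the 6 lesioned libraries, and the dashed line is the median of all genes (-0.28). Of the 27 genes called lower, 1 (Kcnk12) has a mean of at least 0.5 RPKM, as have the 3 called higher.

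Channels of the node and the neighbouring axonal domains were mostly not called. Of 14 such genes 1 fell in the mean of both genotypes, the sodium channel beta subunit Scn2b, with 0.826, 1.98 and 2.87 CPM (lowest, median, highest) unlesioned, 0.280, 0.581 and 0.971 CPM at 4dpl and a log2 change of -1.62 ± 0.42 (SE, adjusted p = 0.0112). The median of the list was -0.58 with 3 genes above 0. The nodal sodium channel Scn8a was at 5.56 to 12.7 CPM unlesioned and 3.01 to 10.3 CPM at 4dpl, with a log2 difference of -0.57 ± 0.28 (SE, adjusted p = 0.111). The axonal potassium channels with the highest levels, Kcna1 and Kcna2, had log2 differences of 0.47 ± 0.32 (SE, adjusted p = 0.252) and of 0.49 ± 0.27 (SE, adjusted p = 0.145). The summed level of 12 neuronal markers was 89.6 to 159 CPM in unlesioned and 111 to 246 CPM in lesioned libraries, none of the 12 was at 0, and 2 of the 12 (Syt1 and Slc6a5) were called lower.

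Of 12 channels of the oligodendrocyte lineage and of glial potassium uptake, Cacng5 rose and 2 fell. The 2 that fell were the L-type calcium channel Cacna1c, which progenitors and neurons share, at 1.92, 5.30 and 7.52 CPM unlesioned and 1.28, 2.11 and 2.77 CPM at 4dpl with a log2 change of -1.28 ± 0.31 (SE, adjusted p = 0.00847), and the sodium channel Scn3a, at 2.37, 4.53 and 6.98 CPM and 1.19, 1.81 and 3.12 CPM with -1.13 ± 0.30 (SE, adjusted p = 0.0119). Cacna1d, the other L-type channel of this list, had a log2 difference of 0.32 ± 0.19 (SE, adjusted p = 0.182). The glial inward rectifier Kcnj10 had 0.23 ± 0.25 (SE, adjusted p = 0.470), and its partner subunit Kcnj16 0.66 ± 0.28 (SE, adjusted p = 0.0722). Progenitor markers moved with the lesion too: 4 of 6 (Pdgfra, Cspg4, Gpr17 and Lhfpl3) were called higher, with sums of 58.2 to 241 CPM unlesioned and 144 to 332 CPM at 4dpl, none at 0, and their part in the value of Cacng5 was not tested.

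Channels of sensory neurons, which a cord suspension should hold at most in traces, fell as well. Scn10a, the tetrodotoxin-resistant channel of nociceptors, was at 0.376, 1.27 and 1.99 CPM in unlesioned and 0.245, 0.173 and 0.322 CPM in lesioned control libraries, and at 0.792, 0.544 and 1.29 CPM and 0.409, 0.161 and 0.126 CPM in mutant ones. Its log2 change was -2.29 ± 0.68 (SE, adjusted p = 0.0481) in controls and -2.10 ± 0.48 (SE, adjusted p = 0.00689) in the mean of both genotypes. Scn9a changed by -1.47 ± 0.36 (SE, adjusted p = 0.00849), and Scn11a had -1.35 ± 0.48 (SE, adjusted p = 0.0373), which was not called. Of 12 channels typical of other organs 10 were tested and 2 of the 10 fell, a share near the 18.6% of all genes. They were the skeletal muscle channels Cacna1s (-1.15 ± 0.36) and Scn4a (-1.70 ± 0.51, log2 ± SE in the mean of both genotypes). Their median levels in unlesioned libraries were 0.927 and 0.948 CPM. The call of Cacna1s was lost under 11 of 18 alternatives, 10 of them the removal of 1 library, and that of Scn4a under 5 of 17, all of them such removals. Of Cacna1s, 20.0% of exon bases lie in an antisense gene.

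Between genotypes no channel gene was called by edgeR with all 12 libraries, TMM and the filter on low counts, and without that filter Hcn2 was called at 4dpl. The 121 had 5 genes at an unadjusted p below 0.05 in unlesioned tissue, 9 at 4dpl and 4 for the interaction, and 0% of all genes were called in each of the 3 comparisons. The other tools called 0 in unlesioned tissue and for the interaction, and at 4dpl DESeq2 called Hcn2 and Kcnk12 higher in mutants, or 1.65% of the 121 against 0.62% of all genes, and voom called 0, against 0.109%. At 4dpl the 3 mutant libraries did not overlap the 3 control libraries in 18 of 121 genes, 12 higher and 6 lower in mutants, which is 14.9% against 12.8% of all genes.

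Hcn2 had the smallest p between genotypes at 4dpl. It was at 57.8, 47.5 and 31.0 CPM in unlesioned control libraries and at 10.3, 11.2 and 10.1 CPM in control libraries at 4dpl. In mutants it was at 39.0, 79.9 and 48.6 CPM unlesioned and at 28.4, 52.9 and 371 CPM at 4dpl. The 3 lesioned control libraries were the lowest of all 12 and lay close together, while the lesioned mutant libraries spread widely and 1 of them, replicate 3, was the highest. The log2 difference of mutant minus control at 4dpl was 3.84 ± 0.74 (SE, adjusted p = 0.185), which was not called. DESeq2 gave 3.79 with an adjusted p of 0.00233 and edgeR without a filter on low counts 3.73 with 0.0147, and both called it. Over all 19 alternatives the difference was 1.94 to 4.33 and the adjusted p 0.00233 to 0.758. Without mutant 4dpl replicate 3 it was 1.94 with an adjusted p of 0.624. The lesion changes behind it were -2.11 ± 0.69 in controls (adjusted p = 0.0606) and 1.43 ± 0.67 in mutants (adjusted p = 0.149), and the interaction was 3.54 ± 0.96 (SE, adjusted p = 0.9999).

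Kcnk12, a tandem-pore subunit closely related to Kcnk13, had the second smallest p at 4dpl, at a mean level of 1.34 RPKM. It was at 3.34, 3.29 and 2.05 CPM in unlesioned and at 0.350, 0.485 and 0.806 CPM in lesioned control libraries. In mutants it was at 1.70, 7.24 and 3.37 CPM unlesioned and 1.34, 2.15 and 5.66 CPM at 4dpl. The 3 lesioned control libraries were again the lowest of the 12, and the fall in controls was called with a log2 change of -2.41 ± 0.62 (SE, adjusted p = 0.0369). In mutants the log2 difference with the lesion was -0.42 ± 0.57 (SE, adjusted p = 0.611), with overlapping libraries. Mutant minus control at 4dpl was 2.49 ± 0.62 (SE, adjusted p = 0.269), with 0.0121 in DESeq2 and 1.67 with an adjusted p of 0.768 without mutant 4dpl replicate 3, and the interaction was 1.99 ± 0.83 (SE, adjusted p = 0.9999).

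The library that was highest for Hcn2 was also the highest for many other abundant channels. Mutant 4dpl replicate 3 held the highest value of 15 of the 35 channels with a mean of at least 0.5 RPKM and of 2 of the other 86, and of 13.4% of all genes. It had 231 CPM of Kcna1, 140.0 CPM of Kcnj10 and 114 CPM of Kcna6, where the 2 other lesioned mutant libraries had 64.6 and 79.4 CPM, 49.5 and 59.3 CPM, and 57.6 and 58.0 CPM. It also had the highest summed level of 8 oligodendrocyte markers, 63228 CPM, where the other 11 libraries lay between 13849 and 32523 CPM. None of the 8 markers was at 0 in any library, and the part of this library's composition in the channel values was not tested. The 3 lesioned control libraries, which were lowest for Hcn2, had sums of 21289 to 32523 CPM, against 13849 to 25672 CPM in the 6 unlesioned libraries.

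**Figure D4:**
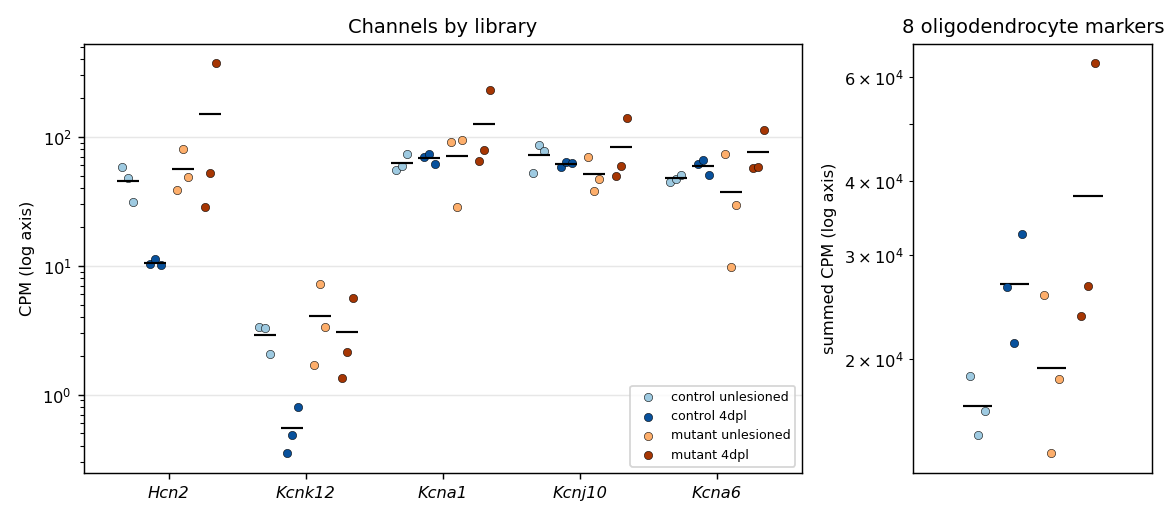
Left, CPM (log axis) of Hcn2, Kcnk12 and 3 other glial and axonal channels, and right, the summed CPM (log axis) of 8 oligodendrocyte markers, with 1 point per library and black lines for the mean of 3. The control libraries at 4dpl are the lowest of all for Hcn2 and Kcnk12 but not for the other 3 channels, and mutant 4dpl replicate 3 has the highest marker sum.

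The promoters of these 2 genes are shown because Tet1 acts on cytosines of CpG dinucleotides and both transcripts were lowest in the 3 lesioned control libraries. They are 5′ to 3′ on the strand of the gene, from RefSeq on GRCm38.p6, 250 bases before the start and 50 after it, with each CG in capitals, at chr10:79716384-79716683 (plus strand) for Hcn2 and chr17:87797945-87798244 (minus strand) for Kcnk12.
Hcn2: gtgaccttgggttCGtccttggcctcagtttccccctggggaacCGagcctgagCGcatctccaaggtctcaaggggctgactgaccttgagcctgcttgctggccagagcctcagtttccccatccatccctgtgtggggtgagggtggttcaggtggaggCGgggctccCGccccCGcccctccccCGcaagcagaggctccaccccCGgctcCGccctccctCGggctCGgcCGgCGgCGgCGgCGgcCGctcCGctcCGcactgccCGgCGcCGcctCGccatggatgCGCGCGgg
Kcnk12: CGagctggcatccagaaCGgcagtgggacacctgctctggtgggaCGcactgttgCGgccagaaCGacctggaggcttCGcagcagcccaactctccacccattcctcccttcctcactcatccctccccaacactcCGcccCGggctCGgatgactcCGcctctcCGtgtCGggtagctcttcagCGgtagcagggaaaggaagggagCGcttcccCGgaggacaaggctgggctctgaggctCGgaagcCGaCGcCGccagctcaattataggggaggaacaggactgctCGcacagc
The Hcn2 window holds 26 CG, as many as or more than which are found in 16.9% of all windows, and that of Kcnk12 holds 20, reached by 26.5%. The motif CG reads alike on both strands and was searched on 1. Of the channel genes 87 had a window, 114 windows in all, with a median of 10 CG against 7 for all windows. These are counts of letters, and methylation was not measured in these libraries.

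For Kcnn4 the log2 difference of mutant minus control was -1.20 ± 0.34 (SE, adjusted p = 0.696) in unlesioned tissue and -1.13 ± 0.34 (SE, adjusted p = 0.375) at 4dpl, and neither was called. In each state every mutant library lay below every control library, as its values above show, while the microglial marker sums of the 2 genotypes overlapped in both states. Of the 7 macrophage markers 6 had a negative log2 difference in unlesioned tissue, with a median of -0.75. Their sums overlapped there, at 9698 to 18611 CPM in control and 6789 to 18182 CPM in mutant libraries. At 4dpl each of the 7 had a negative log2 difference, with a median of -0.87. The sums at 4dpl overlapped too, at 16611 to 24608 CPM in control and 11083 to 25825 CPM in mutant libraries. The part of these markers in the values of Kcnn4 was not tested. Kcnh4, a neuronal voltage-gated potassium channel of the ether-à-go-go group, was at 1.07, 1.86 and 1.77 CPM in lesioned control and 0.659, 0.537 and 0.575 CPM in lesioned mutant libraries, and at 1.03, 1.38 and 1.07 CPM in unlesioned control and 0.921, 2.25 and 1.27 CPM in unlesioned mutant ones. The groups were apart at 4dpl and overlapped in unlesioned tissue, with an interaction of -1.75 ± 0.60 (SE, adjusted p = 0.9999). In unlesioned tissue the next smallest p-values were those of Scn4a, with 1.61 ± 0.70 (SE, adjusted p = 0.927), and of the fast-spiking channel Kcnc2, with 0.93 ± 0.42 (SE, adjusted p = 0.937), both higher in mutants.

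Few of the genes that work with these channels were called. Of 21 auxiliary and modulatory partners outside the symbol rule, 2 rose in the mean of both genotypes: Fgf13, an intracellular modulator of sodium channels, with 1.08 ± 0.31 (log2 ± SE), and Rrad, a small GTPase that restrains calcium channels, with 0.81 ± 0.23. Of 15 scaffold and adhesion proteins of the node and its flanks, Cntn1 (0.75 ± 0.25) and Epb41l3 (0.83 ± 0.28) rose, and Cntnap2 (-1.12 ± 0.33) and Gldn (-1.52 ± 0.36) fell. Cntnap2 anchors the juxtaparanodal potassium channels Kcna1 and Kcna2, whose transcripts were not called. The calls of Cntn1 and Epb41l3 were each lost under 10 of 18 alternatives, RLE size factors among them, and that of Cntnap2 without any of 4 single libraries. Of 16 genes of glial potassium handling, the sodium-potassium pump subunit Atp1b3 (0.76 ± 0.21) rose in the mean of both genotypes. The astrocyte connexin Gja1 rose in controls, with a log2 change of 1.40 ± 0.39 (SE, adjusted p = 0.0439), and had a log2 difference of -0.29 ± 0.39 (SE, adjusted p = 0.600) in mutants, which was 0.21 without mutant unlesioned replicate 2. The call in controls was lost under 8 of 19 alternatives, 6 of them the removal of 1 library.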

How the data were processed

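Per the labels and the study's methods, total RNA of 12 oligodendroglial-enriched suspensions (Percoll gradient, P60 spinal cord) was sequenced, and the authors deposited raw counts per gene on mm10 with exon coordinates and lengths. The labels name STAR, the study's methods another aligner and a counter, so the aligner is uncertain, and the strand setting is not given in the sources used here. Symbols were matched by Ensembl identifier to the GRCm38 annotation. The 121 channel genes had at least 10 counts in at least 3 of 12 libraries.

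Differences were tested with edgeR 4.0.16 (quasi-likelihood, TMM, filterByExpr over 4 groups, 12 libraries, R 4.3.3) with Benjamini-Hochberg adjustment over 31109 genes, and called at p below 0.01 and adjusted p below 0.05. CPM are TMM-scaled, RPKM are CPM per kilobase of exon, and SE was derived from the log2 change and its F statistic. The step was tested on simulated counts. DESeq2 1.42.0, limma 3.58.1 (voom with sample weights), RLE size factors, other filters, only the groups compared, a replicate block and leaving out each library were tried.

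Genes named are, per lesion comparison, up to 10 called in each direction by smallest p, the 3 smallest p of each genotype comparison and the interaction, the 8 highest mean RPKM, and channel lists by cell type. Of the lists of partner genes, called members were named. Some genes that the rule names are not reported here. Members and lists were chosen with earlier results of these data known. Labels do not state separate animals for each library, nor whether the lesioned and unlesioned sides came from the same mice. The study names 3 biological replicates for each condition of spinal cord tissue, and describes the unlesioned samples as the contralateral side. Neither source says which libraries share a mouse, so p-values measure only the spread between libraries. Replicate libraries had equal counts in 2.32 to 4.24% of genes, so none was a copy of another. In groups of 3 an exact permutation test cannot go below p of 0.10, so none is given.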

Additional observations from a re-analysis of the deposited data

How the results depend on the processing

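Of the differences named in the text, 57 were refitted, those of partner genes after the data were seen. Of 1034 refits 1029 kept their direction and 879 also their side of the threshold, with 114 no longer called and 36 newly called. Those that reversed were not called before or after. Kcnj10 in the mean of both genotypes was -0.071 with at least 10 counts in every library, and -0.053 (without mutant 4dpl replicate 3) to 0.39 with 1 library left out. In mutants Hcn2 ranged from -0.43 (without mutant 4dpl replicate 3) to 1.955 and Kcnk12 from -1.21 to 0.29. Gja1 in mutants ranged from -0.63 to 0.21 over its 19 alternatives, and was -0.49 without mutant unlesioned replicate 3. The highest values of Kcnk12 and Gja1 were those without mutant unlesioned replicate 2. Counts of called channels moved more. Channels called lower with the lesion in controls (6) were 23 with DESeq2 and 27 with voom, and those called higher (0) were 1 with DESeq2, 1 without a filter on low counts, 2 with the replicate block, 6 with voom and 1 with only the groups compared. In mutants (0 and 0) DESeq2 gave 1 higher and 17 lower, voom 2 and 14, and only the groups compared 2 lower. In the mean of both genotypes (3 higher, 27 lower) the counts higher were 8 without a filter, 7 with the replicate block and 8 with voom. Voom called 44 lower there. Counts over all genes moved as well. Voom called 4827 lower in controls and 8043 lower in the mean of both, against 1558 and 5771 with edgeR. Higher, voom called 4836 and 6382, against 1592 and 4423 with edgeR. Between genotypes at 4dpl (0) DESeq2 called 2 higher and no filter 1. With 1 library left out, the counts ranged from 0 to 5 higher and 0 to 22 lower in controls, from 0 to 2 higher and 0 to 9 lower in mutants, and from 2 to 8 higher and 19 to 32 lower in the mean of both. The cause of these moves was not tested, except that the fits of only the groups compared hold fewer libraries and 111 channels in controls and in mutants.

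Libraries with the same replicate number deviated together with correlations of 0.05 to 0.19 in controls and -0.07 to 0.07 in mutants. Such correlations cannot decide whether libraries of the same number came from the same mice. The study's methods number some libraries otherwise than the labels, and pairing by those numbers was not tested. The replicate block by label number is given only for completeness. It called 7 lower in controls and 25 lower in the mean of both. The lowest channels, such as Cacng6 and Kcnv2, had no counts in single libraries at 4dpl. Kcnv2 had 0 in control 4dpl replicate 1 and mutant 4dpl replicate 3, with library totals of 67090272 and 64423475. It had 28 in mutant unlesioned replicate 3, which had the lowest total, 34805086. The part of depth in these zeros was not tested.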
